A study of Mus musculus with 5375 samples.

Results

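The comparison described here sets tumour cells (TCs) recovered from inside the lung vessels of mice against the same cells as they were in the culture dish. Cells were chosen by the prefix of their identifiers, which names the sort gate, and not by any measured value. Kept cells were those that the authors retained in their deposited filtered, normalised data. They comprised 325 intravascular TCs from 4 animals and 369 cultured TCs from 1 pool. These were 694 of the 1566 TCs kept and of 5375 sorted cells in the whole series. The TCs were 4T1-GFP cells, a mouse mammary carcinoma line of BALB/c origin that carries green fluorescent protein. Cells were stained with CellTrace, a dye diluted by division, and injected into the tail vein of young adult female wild-type BALB/c mice, and lungs were taken 1.5 days later. An antibody to H-2Kd was injected into the circulation shortly before the lungs were removed, and GFP-positive cells that had been reached by it were sorted as intravascular, while the unstained cells of the same 4 lungs were sorted as extravascular. The paper states that these gates enriched the populations without reaching high purity. It also reports that cells partly outside a vessel were stained in part. Leftover cells of the injected culture, grown in high-glucose DMEM, were sorted as the day 0 control. Lung cells were released by enzymatic digestion with Liberase, a step that the cultured cells did not pass through. The model injects a single line straight into blood and so leaves out growth in and escape from a primary tumour.

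A TC that lodges in a lung capillary loses the medium, serum and rigid plastic of culture and meets flow, platelets, leukocytes and the endothelium. The integrated stress response is the programme by which cells answer a shortage of amino acids or an overload of the endoplasmic reticulum: phosphorylation of eIF2α slows translation while favouring the transcription factor ATF4, whose targets make or import amino acids and include the factor CHOP. Interferons raise antiviral genes together with the machinery that loads peptides on MHC class I, and NF-κB drives chemokines and its own inhibitor.

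Reads of all kept cells were summed within each animal and within the pool, and expression is given as CPM, the reads of a gene per 1000000 reads of its library. The culture pool held 92.1 M reads (M, 1000000 reads each) and the 4 intravascular libraries 39.2 to 49.9 M, from 79 to 84 cells each. Per cell, the order was the other way round, with a median of 253686 reads in culture and medians of 521541 to 590399 in the animals. Mitochondrially encoded genes took 2.45% of reads in the pool and 2.66% to 3.60% in the animals. The methods keep TCs under 5% mitochondrial transcripts, but by the deposited counts 11, 10, 18 and 16 of the kept intravascular cells per animal, 55 of 325 (16.9%), and 1 of 369 cultured cells were above it, as were 139 of all 1566 kept TCs. Without the cells above that limit 618 genes were called higher and 748 lower. The number of cells kept in the deposited filtered data also differs from the number stated for the study. Every gate was sequenced on a lane of its own, so that gate and lane cannot be told apart, and the culture was a single pool with no replicate. A gene was called when its adjusted p was under 0.05 in a quasi-likelihood test (edgeR, 14 TC libraries) and all 4 animals lay on one side of the pool. The test assumes for the pool the spread measured between animals. It also takes libraries as independent, although intravascular and extravascular libraries shared the same 4 animals. By the annotation, the proliferative cells shared an animal with a latent library. The 4 animals were separate mice, and for a single value 4 animals against 1 pool allow no exact permutation p below 0.2.

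Of 8778 genes tested, 644 were called higher in intravascular TCs (7.34%) and 767 lower (8.74%), and the shares called of each gene list below are read beside these. At least a 2-fold distance between the pool and the nearest animal was found for 220 of the higher genes (2.51%) and 288 of the lower ones (3.28%). Position alone was less selective, since all 4 animals lay above the pool for 2486 genes (28.3%) and below it for 3039 (34.6%). The median difference over all genes tested was -0.09 on the log2 scale. Scaling to housekeeping genes was the normalisation chosen for the deposited log10 values. Other alternatives tested every gene with no filter on low values, used the culture pool and the 4 intravascular libraries alone, averaged CPM over cells instead of summing reads, kept cells with up to 5% mitochondrial reads, corrected for transcript length and GC content (chosen after seeing the data) or used DESeq2 or its size factors, and calls lost under them are given with the genes they concern. When libraries were scaled to the mean of 8 of the study's 11 housekeeping genes in place of TMM, those whose mean over genes with reads recovered the deposited log10 values of Eef1a1 (members listed as Tbo, Arbp and Hprt1 were left out), this median moved down by a further 0.25 and calls became 333 higher (3.71%) and 1503 lower (16.7%), so that 18.1% of calls were upward in place of 45.6%. The deposited log10 values, averaged per library, gave 809 higher (9.22%) and 1535 lower genes (17.5%). No gene called under the main scaling was called in the opposite direction under any of the alternatives run.

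Marker lists for the tumour cells and for other cells of lung and blood were summed in each library. The 10 markers of 4T1 epithelial tumour cells summed to 4360.5 CPM in the pool and to 3067, 5089, 4561 and 3408 CPM in the 4 animals, with the pool inside their range. Neutrophil markers summed to 48.0 to 60.5 CPM in the animals and 80.4 CPM in the pool, where 99.1% of the sum was Cxcr2 (79.7 against 47.3 to 57.1 CPM), which did not pass. Their other members summed to 0.677 to 3.38 CPM against 0.752 CPM, with 3 of 4 animals above the pool. Monocyte and macrophage markers summed to 5.37 to 9.25 CPM against 14.3 CPM, 90.4% of the pool's sum being Cd68 (12.95 against 2.99 to 4.36 CPM), which did not pass either, and the other members were higher in all 4 animals, at 1.76 to 5.27 against 1.38 CPM. Endothelial markers summed to 28.6 to 41.2 CPM against 39.8 CPM. Their most abundant member, Egfl7, was called lower (27.3 against 9.26 to 12.5 CPM), and without it the list was higher in all 4 animals, at 17.7 to 28.6 against 12.6 CPM. Platelet markers reached 12.0 CPM in animal 3, of which 73.8% came from 1 cell, and lay between 0.95 and 4.97 CPM in the other animals against 1.62 CPM in the pool. Lymphocyte markers amounted to 2.13 to 8.43 CPM against 0.695 CPM, with 4 to 11 of the 14 genes at 0 and 1 to 4 cells with 10 or more reads per animal. Erythroid markers stood at 2.53 to 5.15 against 2.10 CPM, and stromal or mural markers at 1.38 to 12.3 against 1.97 CPM. Lung epithelial markers were higher in all 4 animals, with 56.0, 21.4, 31.5 and 2.43 CPM against 0.649 CPM, from 4 to 11 cells with 10 or more reads per animal. Their most abundant member Scgb1a1, the secretoglobin of club cells, accounted for most of this with 44.3, 11.2, 20.3 and 1.36 CPM in the animals and 0.171 CPM in the pool, and 84.7% of the list's reads in animal 1 came from 1 cell. Scgb1a1 was called higher, with a log2 fold change of 6.80 and of 5.97 without animal 1. The part of these markers in the results that follow was not tested. Testing without a filter on low values left no call for Scgb1a1. Another loss was Egfl7 with mean CPM per cell.

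**Figure D1:**
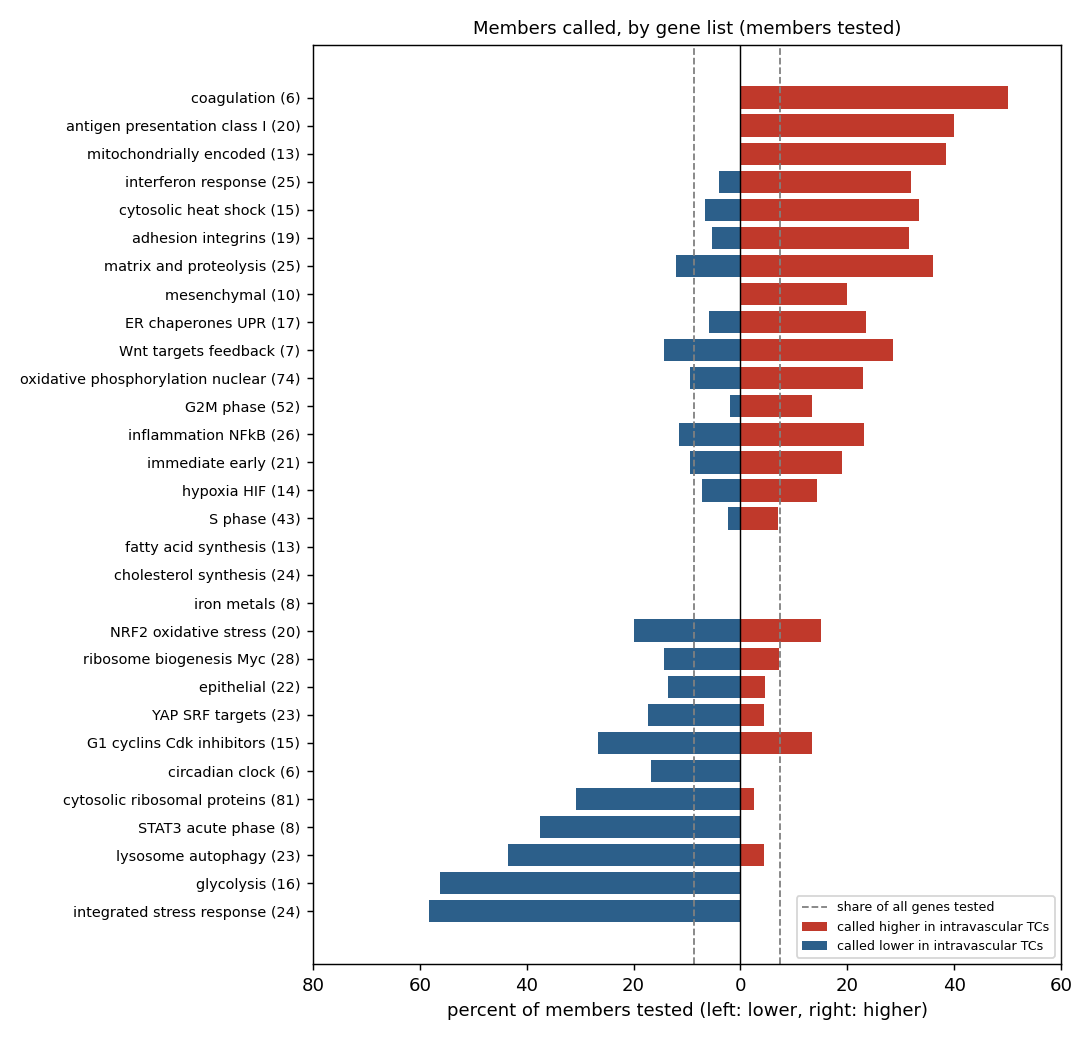
Share of the tested members of the gene lists with 6 or more, without the marker lists, the class II list, the housekeeping panel and the lists of the study, that were called higher (red, to the right) or lower (blue, to the left) in intravascular TCs than in the culture pool, with the number of members tested in brackets and dashed lines at the shares of all genes tested (7.34% and 8.74%). Integrated stress response and glycolysis genes lie furthest to the left, and coagulation, class I presentation and mitochondrially encoded genes furthest to the right among those drawn.

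Of 24 integrated stress response genes tested, 14 fell in intravascular TCs (58.3%, beside 8.74% of all genes tested), 10 did not pass and none rose, even at an unadjusted p under 0.05 or in DESeq2, 13 of the 14 by at least 2-fold in every animal, with a median difference of -2.15 on the log2 scale against -0.09 over all genes. Their summed level was 5283 CPM in the pool and 1873, 1323, 1278 and 1415 CPM in the 4 animals. Promoter sequence of 3 of the fallen genes is shown because each holds the core letters TGATGNAA of the C/EBP-ATF response element, through which ATF4 acts. These letters, searched on both strands in the 250 bases before the RefSeq start (GRCm38.p6), occurred in 3.53% of all 27025 mouse promoters, in 7 of the 22 list promoters that could be matched and in 4 of the 14 promoters of fallen members. Capitals mark the match, the lines run 5′ to 3′ on the gene's strand, and annotated exon sequence is left out or kept to a short stretch around the match. Gars was picked for its match after its values were seen.
Chac1 (chr2:119350992-119351228, plus strand, match 193 bases before the start): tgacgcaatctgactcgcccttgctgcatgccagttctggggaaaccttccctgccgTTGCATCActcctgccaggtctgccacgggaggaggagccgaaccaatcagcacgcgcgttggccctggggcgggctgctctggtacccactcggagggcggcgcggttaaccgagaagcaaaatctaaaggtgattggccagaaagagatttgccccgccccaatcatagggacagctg
Asns (chr6:7693215-7693242, minus strand, match 23 bases before the start): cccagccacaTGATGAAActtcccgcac
Gars (chr6:55037751-55038000, plus strand, match 30 bases before the start): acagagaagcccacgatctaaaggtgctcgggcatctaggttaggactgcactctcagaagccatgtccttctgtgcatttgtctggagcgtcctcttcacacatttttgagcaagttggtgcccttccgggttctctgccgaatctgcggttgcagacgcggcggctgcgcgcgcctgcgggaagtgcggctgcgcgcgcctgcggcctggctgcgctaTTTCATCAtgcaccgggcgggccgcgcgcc

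Chac1, a glutathione-degrading enzyme induced by ATF4 and CHOP and encoded on chromosome 2 (chr2:119351229-119354381), stood at 209 CPM in culture and at 7.64, 11.7, 8.0 and 5.09 CPM in the 4 animals. The pool was 25.9 times the mean of the animals, with no overlap (log2 fold change -4.69 ± 0.89 (SE), adjusted p = 0.00135). Trib3, a pseudokinase that feeds back on ATF4 and CHOP, measured 149.9 CPM in the pool and 16.3, 5.75, 12.4 and 5.59 CPM in the animals, a 14.95-fold lower mean with every animal far below the culture (log2 fold change -3.90 ± 0.56, adjusted p = 1.24e-04). Asparagine synthetase, Asns, was at 244 CPM in culture and at 33.3, 23.8, 22.03 and 15.8 CPM in the animals. This was a 10.3-fold fall (log2 fold change -3.36 ± 0.28, adjusted p = 2.89e-07), again without overlap. Ddit3, which encodes CHOP, measured 317 CPM in the pool against 51.2, 35.6, 42.7 and 42.1 CPM, a 7.40-fold difference (adjusted p = 1.67e-05). Exons of Ddit3 overlap those of Mars and of Gm4189, whose reads could not be separated here. The remaining fallen members, named after their values were seen, were Atf4 itself (402 against 61.3 to 94.8 CPM), the serine and one-carbon enzymes Phgdh, Psat1, Psph, Shmt2 and Mthfd2, the aminoacyl-tRNA synthetases Sars, Gars and Aars, and the amino acid transporter subunit Slc3a2. Phgdh, which opens serine synthesis, went from 593 to 94.5–127 CPM, and Aars changed least of these, from 78.3 to 34.9–40.1 CPM. The 10 members that did not pass included Atf3, where the animals spanned 16.3 to 64.5 CPM around the pool's 41.1 CPM. Extravascular TCs of the same lungs, which share the culture pool as reference, held 25.9 ± 37.6 CPM of Chac1 and 30.2 ± 5.99 CPM of Asns (mean ± SD, n = 4), beside 8.10 ± 2.70 and 23.7 ± 7.25 CPM in the intravascular cells.

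**Figure D2:**
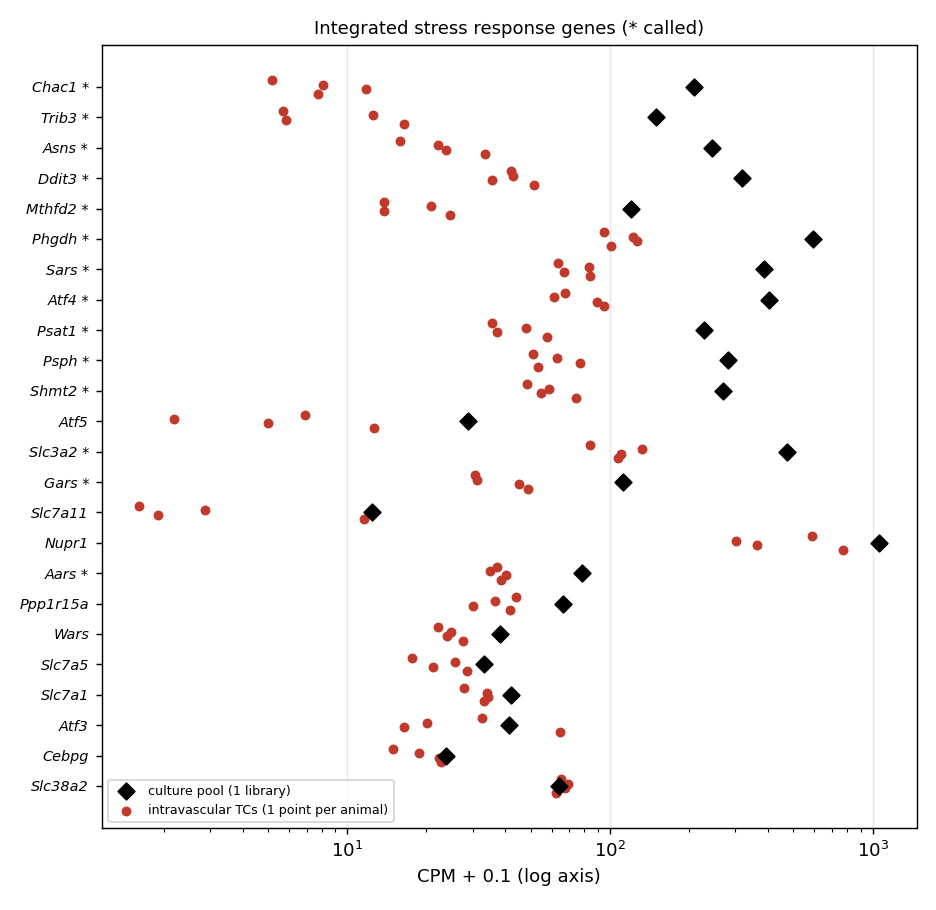
Level of each integrated stress response gene in the culture pool (black diamond) and in intravascular TCs of each of the 4 animals (red points), as CPM + 0.1 on a log axis, ordered by fold change; an asterisk marks a called gene. For Chac1, Trib3, Asns and Ddit3 the animals lie well to the left of the pool, whereas those of Atf3 lie on both sides of it.

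Of 16 glycolysis genes tested, 9 fell (56.3%, beside 8.74% of all genes) and none rose, even at an unadjusted p under 0.05 or in DESeq2, with a median difference of -0.86, and their summed level went from 7099 CPM to 2917, 3854, 4118 and 3075 CPM. Glucose transporter Slc2a1 measured 35.6 CPM in culture and 18.9, 11.5, 10.8 and 10.8 CPM in the animals, and animal 1 was the nearest to the pool. Its call (adjusted p = 0.0307) was lost without animal 2, 3 or 4 (adjusted p = 0.0554 to 0.0622). Triosephosphate isomerase, Tpi1, was at 582 CPM in the pool and 179, 301, 305 and 202 CPM in the animals (log2 fold change -1.24 ± 0.24, adjusted p = 0.00182). Enolase 1, Eno1, fell from 1265 to 435–636 CPM and Gapdh from 1489.7 to 523–719 CPM, with log2 fold changes of -1.24 ± 0.21 and -1.28 ± 0.15. No animal reached the pool for any of these 3 enzymes, though Gapdh has many near-identical pseudogene copies that can share its reads. Hypoxia genes gave 2 higher (14.3%) and 1 lower (7.14%) of 14, beside 7.34% and 8.74% of all genes. Higd1a rose from 156 to 248–299.8 CPM, Fam162a rose from 246 to 346–389.7 CPM, and the mitophagy receptor Bnip3l fell from 118 to 38.8–55.8 CPM. Slc2a1, Higd1a and Fam162a lost their calls without a filter on low values. Other losses were Higd1a and Fam162a under housekeeping scaling, Higd1a and Fam162a with the deposited log10 values, Slc2a1 in cells with up to 5% mitochondrial reads, and Slc2a1 and Fam162a with length and GC correction.

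Of 81 cytosolic ribosomal protein genes, 25 were lower (30.9%) and 2 higher (2.47%), and the median difference was small (-0.26). Rplp0, of the ribosomal stalk, had 8899 CPM in the pool and 4253, 5197, 5256 and 4262 CPM in the animals (log2 fold change -0.91 ± 0.15, adjusted p = 5.12e-04). Rpsa, Rpl3 and Rpl4 fell too, with log2 fold changes of -0.95 ± 0.12, -1.26 ± 0.18 and -1.21 ± 0.22, while Rpl5 (23.03 against 48.1 to 76.5 CPM) and the p53-responsive Rps27l (843 against 1481 to 1597 CPM) rose. Processed copies of these genes can take part of their reads, and the count of fallen members was 45 under housekeeping scaling. Of 28 ribosome biogenesis and Myc-linked genes 2 were higher (7.14%) and 4 lower (14.3%), beside 7.34% and 8.74% of all genes tested. Myc fell from 169.8 CPM to 34.6, 28.4, 26.1 and 32.4 CPM, a 5.59-fold difference with all animals well below the pool (log2 fold change -2.48 ± 0.20, adjusted p = 1.92e-07). Npm1 (-0.50), Ppan (-0.79) and Pes1 (-0.92) had smaller negative log2 fold changes, and nucleolin, Ncl (0.49), and Nhp2 (0.55) small positive ones. The call of Pes1 was lost without animal 2, 3 or 4 (adjusted p = 0.0605 to 0.0931). The calls of Rpl5 and Pes1 ended without a filter on low values. Other losses were Ncl and Nhp2 under housekeeping scaling, Ncl and Nhp2 with the deposited log10 values, Pes1 in cells with up to 5% mitochondrial reads, Pes1 in the culture and intravascular libraries alone, Pes1 with mean CPM per cell, Pes1 and Ncl with length and GC correction, and Pes1 with DESeq2 size factors.

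Lysosome and autophagy genes gave 10 lower (43.5%) and 1 higher (4.35%) of 23. Sqstm1, the autophagy cargo receptor p62, had 483 CPM in culture and 143, 87.1, 99.4 and 74.1 CPM in the animals, which all lay far below it (log2 fold change -2.26 ± 0.28, adjusted p = 2.80e-05). Gabarapl1, of the ATG8 family, fell from 15.7 to 2.79–5.68 CPM, Wipi1 from 28.01 to 6.44–11.03 CPM and hexosaminidase Hexa from 14.2 to 3.39–5.18 CPM. The call of Hexa was lost without animal 4 (adjusted p = 0.0524). The tetraspanin Cd63 rose slightly, with a log2 fold change of 0.53 ± 0.14. Genes that answer NRF2 and oxidative stress gave 3 higher (15.0%) and 4 lower (20%) of 20. Glutathione peroxidase Gpx1 was 529 CPM in the pool and 3001, 2779, 3118 and 3086 CPM in the animals, a 5.67-fold rise with no overlap (adjusted p = 7.39e-08). Thioredoxin Txn1 (1802 against 3786 to 4453 CPM) and Prdx1 (974 against 1174 to 1668 CPM) rose, while Hmox1 (32.4 against 5.53 to 10.95 CPM), Nqo1 (9.94 against 1.72 to 3.60 CPM), Prdx6 (711 against 238 to 349 CPM) and Tkt (158 against 97.6 to 102 CPM) fell. The call of Hmox1 was lost without animal 1 (adjusted p = 0.0506) and that of Tkt without animal 2 (adjusted p = 0.0519). Testing without a filter on low values left no call for Hexa, Prdx1, Hmox1, Nqo1 and Tkt. Other losses were Cd63 and Prdx1 under housekeeping scaling, Hexa, Cd63, Prdx1 and Nqo1 with the deposited log10 values, Hexa, Prdx1 and Nqo1 in the culture and intravascular libraries alone, Hexa, Nqo1 and Tkt with mean CPM per cell, and Hexa and Tkt with length and GC correction.

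Interferon-response genes were called higher in 8 (32.0%) and lower in 1 (4.00%) of 25, with a median difference of 0.75. A search of both strands for GAAANNGAAA, the core of the interferon-stimulated response element, found it in 3.04% of all mouse promoters, in 5 of 20 matched list promoters and in 3 of the 5 that could be matched among the risen genes. The promoters of Oas1g and of Bst2, the latter picked for its match after its values were seen, are shown with the matches in capitals (RefSeq, GRCm38.p6, 5′ to 3′), and none of the printed promoters held the other motif.
Oas1g (chr5:120887614-120887863, minus strand, overlapping matches 18 and 12 bases before the start): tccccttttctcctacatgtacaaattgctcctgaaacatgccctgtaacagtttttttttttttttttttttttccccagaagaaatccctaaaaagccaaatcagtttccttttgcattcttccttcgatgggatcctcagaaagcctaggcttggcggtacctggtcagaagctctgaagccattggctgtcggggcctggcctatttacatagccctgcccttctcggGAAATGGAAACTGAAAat
Bst2 (chr8:71537473-71537722, minus strand, overlapping matches 130 and 124 bases before the start): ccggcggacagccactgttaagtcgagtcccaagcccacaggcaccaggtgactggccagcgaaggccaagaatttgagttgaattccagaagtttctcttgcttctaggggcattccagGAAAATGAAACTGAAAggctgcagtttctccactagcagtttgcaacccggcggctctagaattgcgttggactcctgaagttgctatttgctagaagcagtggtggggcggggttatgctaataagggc

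The transmembrane restriction factor Ifitm3 stood at 459 CPM in culture and at 1791, 1854, 1982 and 1984 CPM in the animals, a 4.15-fold higher mean (log2 fold change 2.05 ± 0.18, adjusted p = 6.65e-07), and Ifitm2 of the same cluster can share its reads. The antiviral synthetase Oas1g, which has a close copy in Oas1a, rose from 0.456 CPM to 8.49, 7.79, 35.9 and 3.71 CPM, with more in animal 3 than in the other 3 together. Rtp4, a chaperone induced by interferon, was at 3.26 CPM in the pool and 11.7 to 22.5 CPM in the animals, and leaving out the highest cell of each library brought the nearest animal level with the pool. Its call was also lost without animal 2, 3 or 4 (adjusted p = 0.0572 to 0.0734). Samhd1, a nucleotide hydrolase, was the member that fell (49.7 against 16.1 to 29.3 CPM), and its call was lost without animal 2 or 3 (adjusted p = 0.0524 to 0.0623). Named after their values were seen, Bst2 rose from 15.6 to 35.1–50.9 CPM, Isg20 from 118 to 184–213 CPM, and Ifit2 was higher in culture, at 9.68 against 0.191 to 3.35 CPM, without passing. Oas1g, Rtp4, Samhd1, Bst2 and Isg20 lost their calls without a filter on low values. Other losses were Rtp4 and Isg20 under housekeeping scaling, Rtp4 and Isg20 with the deposited log10 values, Rtp4 and Samhd1 in cells with up to 5% mitochondrial reads, Samhd1 in the culture and intravascular libraries alone, Rtp4 with mean CPM per cell, and Rtp4 without TMM.

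Genes of MHC class I presentation rose in 8 of 20 (40.0%) and fell in none (2 fell at an unadjusted p under 0.05, none in DESeq2). The immunoproteasome subunit Psmb10 measured 98.6 CPM in the pool and 283, 322, 339 and 303 CPM in the animals (log2 fold change 1.66 ± 0.19, adjusted p = 1.08e-05). Psmb8 went from 79.5 to 183, 210.2, 239.7 and 211 CPM (adjusted p = 4.09e-04), and Psmb9 from 7.27 to 16.7–25.01 CPM. The proteasome activator Psme2 rose from 306 to 681–867 CPM. All 4 of these genes were above the pool in every animal. Of the presented molecule, the light chain B2m rose from 1581 to 2200.2, 2337, 3226 and 2569.8 CPM, with a log2 fold change of 0.71 ± 0.18. The heavy chain gene H2-K1, whose BALB/c product H-2Kd is the antigen of the sorting antibody, was 248 CPM in the pool and 195, 335, 454 and 279 CPM in the animals and did not pass (adjusted p = 0.493), nor did H2-D1 (924 against 574, 948, 1302 and 757 CPM, adjusted p = 0.945). Both were counted against a reference of another H-2 haplotype than that of BALB/c, and class I genes share stretches of sequence. Class II genes had 2 tested members and no call, H2-DMa standing at 11.4 CPM against 2.70 to 10.7 CPM. The calls of Psmb9 and B2m ended without a filter on low values. Other losses were B2m under housekeeping scaling, and B2m with the deposited log10 values.

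**Figure D3:**
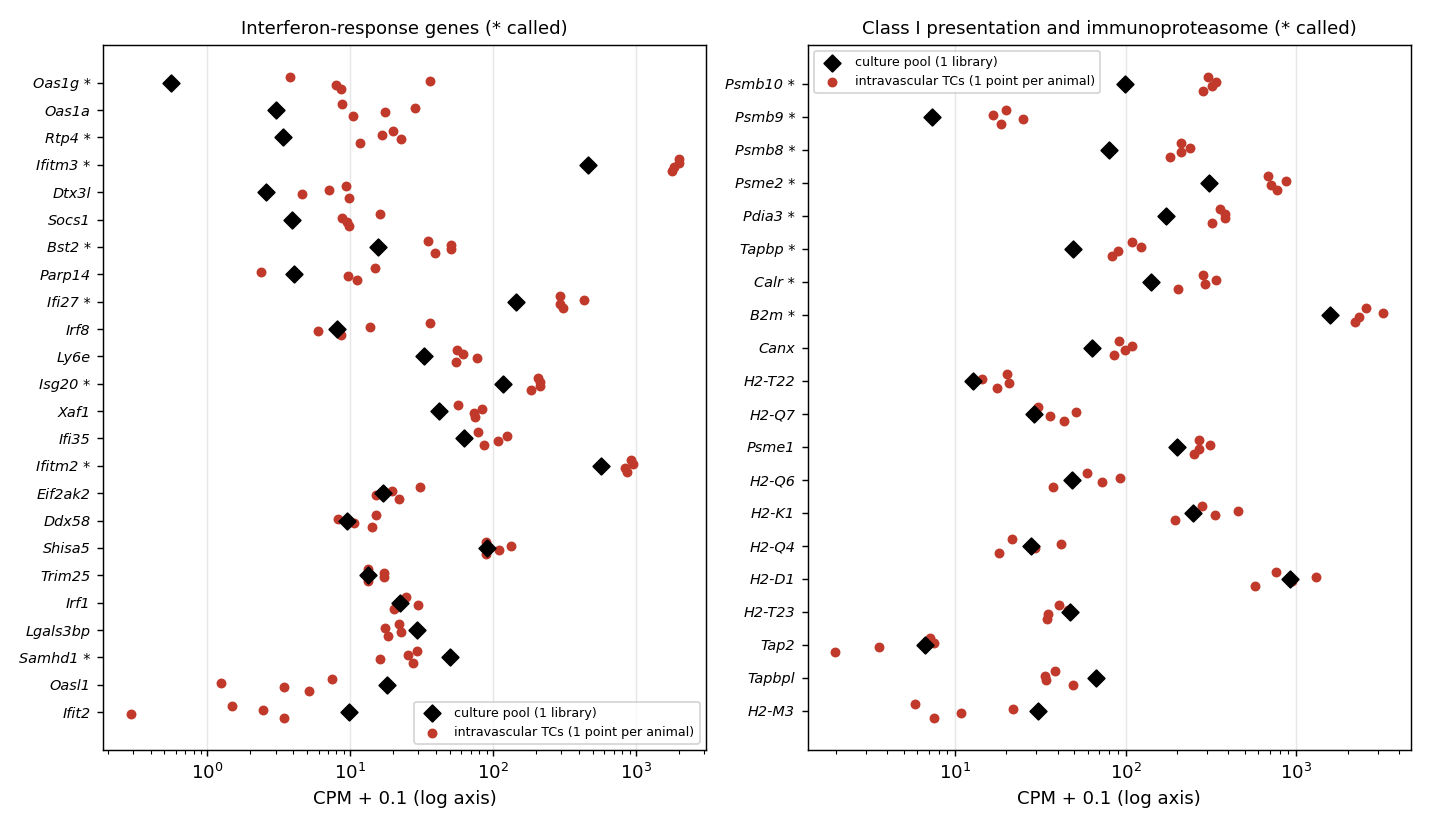
Levels of interferon-response genes (left) and of class I presentation and immunoproteasome genes (right) in the culture pool (black diamond) and in each of the 4 animals (red points), as CPM + 0.1 on a log axis; an asterisk marks a called gene. Animals lie to the right of the pool for Oas1g, Ifitm3, Psmb8, Psmb9 and Psmb10, and on both sides of it for H2-D1.

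Chemokines and other NF-κB-linked genes gave 6 higher (23.1%) and 3 lower (11.5%) of 26. Ccl5, which attracts T cells and monocytes, was 7.22 CPM in the pool and 159, 208, 611 and 206 CPM in the animals, so that animal 3 stood far above the others (log2 fold change 5.36 ± 1.33, adjusted p = 0.00955, and 4.73 without animal 3). The interferon-inducible chemokine Cxcl11 had 2 reads in the whole pool and 2878 reads in the animals, at 10.1, 6.89, 41.9 and 11.4 CPM, a ratio of 765 with an exact 95% counting interval of 212 to 6319. Without animal 3 the ratio for Cxcl11 was 423. Its call did not hold without a filter on low values. Reads carry no molecular identifiers, so such intervals cover counting error only. The inhibitor Nfkbia rose from 255 to 711, 605, 564 and 627 CPM (log2 fold change 1.30 ± 0.30, adjusted p = 0.00642), and the subunit gene Nfkb1 from 9.70 to 22.8–45.8 CPM. In the other direction, Ccl20 measured 28.9 CPM in culture and 0.269, 0.899, 0 and 0 CPM in the animals, although its call was lost without animal 1, 3 or 4 (adjusted p = 0.0634 to 0.0722) and its log2 fold change of -6.66 became -8.33 without animal 2. The neutrophil chemokine Cxcl5 fell from 12.98 to 0.251–2.15 CPM, a call lost without animal 3 or 4 (adjusted p = 0.0524 to 0.0595), and the prostaglandin synthase Ptgs2 from 55.1 to 8.44–20.4 CPM. STAT3 and acute-phase genes gave 3 lower of 8 (37.5%) and none higher. These were the transcription factor Cebpb, at 57.5 CPM in culture and 9.30, 8.74, 10.4 and 10.5 CPM in the animals (log2 fold change -2.57 ± 0.31, adjusted p = 2.47e-05), and the kinases Pim1 (13.99 against 2.37 to 5.24 CPM) and Pim3 (37.9 against 7.30 to 8.96 CPM). Testing without a filter on low values left no call for Ccl5, Nfkb1, Ccl20 and Cxcl5. Other losses were Nfkb1 under housekeeping scaling, and Cxcl5 in cells with up to 5% mitochondrial reads.

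Matrix and proteolysis genes rose in 9 (36.0%) and fell in 3 (12.0%) of 25. The gelatinase Mmp9 stood at 3.92 CPM in culture and 61.2, 64.7, 91.1 and 65.2 CPM in the animals (log2 fold change 4.17 ± 0.58, adjusted p = 9.27e-05). The collagen VI chain Col6a1 was nearly absent from the pool, at 0.296 CPM, and reached 20.98, 24.2, 23.1 and 21.2 CPM in the animals (adjusted p = 6.06e-05). Laminin chains that anchor epithelia through α6β4 integrin rose: Lama3 went from 2.49 to 18.9–34.03 CPM and Lamb3 from 19.9 to 63.3–104 CPM. The largest fall of the list was that of thrombospondin 1, Thbs1, an adhesive and antiangiogenic glycoprotein, from 67.4 CPM to 1.17, 2.21, 2.58 and 9.91 CPM (log2 fold change -4.08 ± 0.67, adjusted p = 4.28e-04), animal 4 being the nearest to the pool. Without animal 4 the log2 fold change of Thbs1 was -5.09. The lysyl oxidase Loxl2 (63.5 against 9.31 to 18.3 CPM) and cathepsin L, Ctsl (1423 against 391 to 879 CPM), also fell. Ctsl lost its call without a filter on low values.

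Adhesion genes were higher in 6 (31.6%) and lower in 1 (5.26%) of 19. Both chains of the laminin receptor rose, Itga6 from 17.6 CPM to 36.9, 37.9, 45.4 and 43.2 CPM (adjusted p = 0.0116) and Itgb4 from 16.4 CPM to 32.2, 40.7, 32.6 and 50.3 CPM (adjusted p = 0.00897). The hyaluronan receptor Cd44 went from 43.2 to 132, 203, 199.6 and 168 CPM, a 4.07-fold higher mean without overlap (log2 fold change 2.02 ± 0.24, adjusted p = 2.47e-05). Alcam rose from 3.99 to 21.5–28.7 CPM, and the junctional protein F11r fell from 170.3 to 57.6–106 CPM. Of 6 coagulation and fibrinolysis genes tested, 3 rose (50%) and none fell. The plasminogen-receptor subunit S100a10 had 2049 CPM in the pool and 9147, 8300.2, 8418 and 8648 CPM in the animals (log2 fold change 2.07 ± 0.16, adjusted p = 1.80e-07). The protease inhibitor Serpine2 (2.12 against 5.48 to 16.5 CPM) and the protein C receptor Procr (29.98 against 50.2 to 74.8 CPM) rose too. The call of Serpine2 was lost without animal 2, 3 or 4 (adjusted p = 0.0517 to 0.0742) and that of Procr without animal 2, 3 or 4 (adjusted p = 0.0515 to 0.0781). From the study's own extravasation list, 3 of 7 tested members were higher (42.9%), namely Itga6, Itgb1 (308 against 509 to 594 CPM) and the growth factor Hbegf (170.4 against 369 to 411 CPM), and none was lower. That list and the study's EMT list, of which 39 rose (19.8%) and 13 fell (6.60%) among 197, beside 7.34% and 8.74% of all genes tested, were chosen by the study and used by it on these cells. From the EMT list, the membrane protein Emp3 rose from 164 to 597, 589, 739.9 and 568 CPM, while the protease Htra1 (282 against 64.2 to 83.3 CPM) and the growth-arrest gene Gadd45a (92.7 against 19.5 to 25.6 CPM) fell. The calls of Serpine2 and Procr ended without a filter on low values. Other losses were Serpine2 and Procr under housekeeping scaling, Itgb1 with the deposited log10 values, Serpine2 and Procr in cells with up to 5% mitochondrial reads, Procr in the culture and intravascular libraries alone, and Serpine2 with mean CPM per cell.

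**Figure D4:**
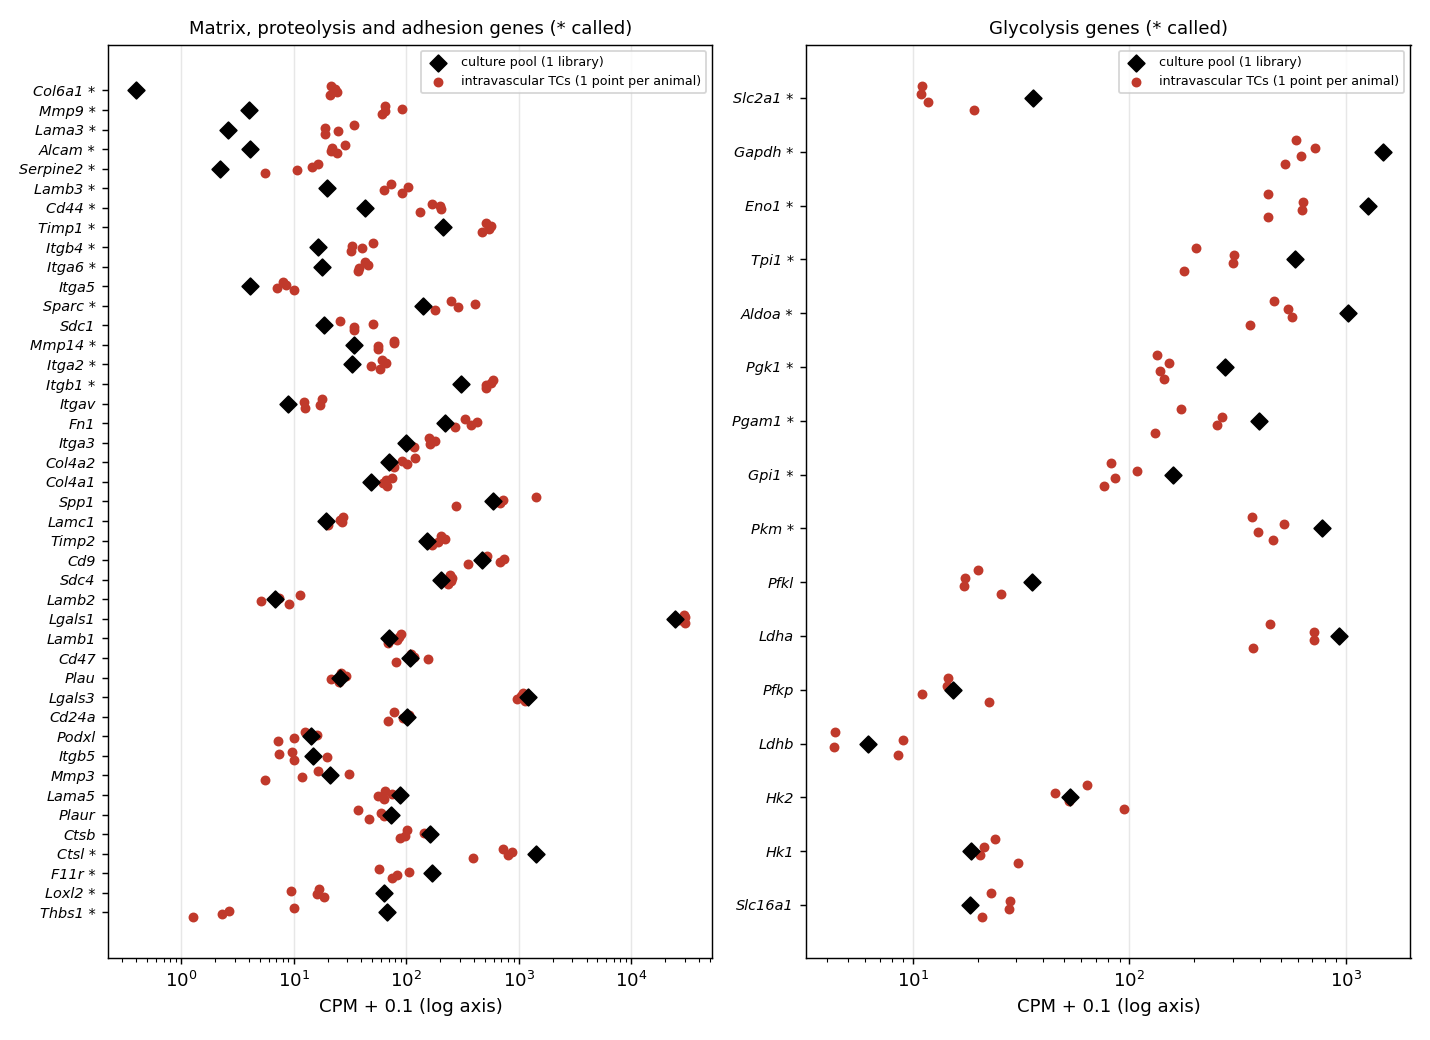
Levels of matrix, proteolysis and adhesion genes (left) and of glycolysis genes (right) in the culture pool (black diamond) and in each of the 4 animals (red points), as CPM + 0.1 on a log axis; an asterisk marks a called gene. Col6a1, Mmp9 and Lama3 lie to the right of the pool, Thbs1 to the left, and the called glycolysis genes all to the left.

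Of 22 epithelial genes 4.55% rose and 13.6% fell, beside 7.34% and 8.74% of all genes tested. The basal keratin Krt14 stood at 5.52 CPM in culture and 43.96, 111, 101 and 55.2 CPM in the animals (log2 fold change 3.82 ± 0.83, adjusted p = 0.00401). The simple-epithelial Krt7 fell from 1515 to 398, 983, 676 and 502 CPM, and the tight-junction claudins Cldn3 and Cldn4 from 291 to 106–141 CPM and from 196 to 31.1–70.4 CPM. Among 10 mesenchymal genes 20% rose: Vim rose from 581 to 1041–1317 CPM and S100a4 from 3285 to 4259–6428 CPM, and none fell. YAP and SRF targets, which answer a stiff substrate, gave 4 lower (17.4%) and 1 higher (4.35%) of 23, beside 8.74% and 7.34% of all genes, and their median difference of -0.12 was close to the -0.09 of all genes. Ankrd1 went from 176 CPM to 47.3, 74.4, 42.1 and 75.02 CPM (adjusted p = 0.00158). Ccn1 went from 262 to 53.5, 59.4, 124 and 56.7 CPM, with animal 3 the nearest to the pool. Lats2 (8.08 against 2.33 to 2.72 CPM) and Filip1l (74.7 against 33.6 to 43.5 CPM) fell, and filamin A, Flna, rose from 144 to 197–250.2 CPM with a call lost without animal 3 or 4 (adjusted p = 0.0548 to 0.0589). The call of Lats2 was lost without animal 1, 2, 3 or 4 (adjusted p = 0.0621 to 0.0699). Testing without a filter on low values left no call for Krt7, S100a4, Ccn1, Lats2, Filip1l and Flna. Other losses were S100a4 and Flna under housekeeping scaling, Flna with the deposited log10 values, Flna in cells with up to 5% mitochondrial reads, Flna in the culture and intravascular libraries alone, Lats2 with mean CPM per cell, S100a4 with length and GC correction, and Ccn1 and Lats2 in DESeq2.

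Of 15 cytosolic heat-shock genes, 5 rose (33.3%) and 1 fell (6.67%). The inducible Hspa1b, near-identical to Hspa1a, was 1.23 CPM in the pool and 23.3, 7.65, 6.70 and 13.5 CPM in the animals. Hsp90aa1 rose from 1992 to 4081, 3725, 3805 and 3607 CPM (log2 fold change 0.93 ± 0.16, adjusted p = 5.88e-04), and Dnaja1 and Hsph1 from 131 to 263–336 CPM and from 24.96 to 44.5–59.1 CPM, while Hspb8 fell from 91.8 to 45.6–58.8 CPM. In the endoplasmic reticulum, 4 of 17 genes rose (23.5%) and 1 fell (5.88%). Hsp90b1 went from 209.5 CPM to 486, 526, 603 and 576 CPM (log2 fold change 1.39 ± 0.18, adjusted p = 4.73e-05). Creld2 (41.7 against 82.4 to 122 CPM), Manf (396 against 644 to 816 CPM) and the chaperone BiP, Hspa5 (643 against 818 to 1092 CPM), rose, whereas Herpud1, of the degradation pathway, fell from 60.7 to 11.1–18.8 CPM. The call of Hspa5 was lost without animal 3 or 4 (adjusted p = 0.0537 to 0.0581). Hspb8 and Hspa5 lost their calls without a filter on low values. Other losses were Hsph1 and Hspa5 under housekeeping scaling, Hspb8, Manf and Hspa5 with the deposited log10 values, and Hspb8 and Hspa5 with length and GC correction.

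Immediate early genes, which respond within minutes to serum, injury and tissue dissociation, were higher in 4 (19.0%) and lower in 2 (9.52%) of 21, beside 7.34% and 8.74% of all genes. Fosb stood at 1.17 CPM in culture and 17.9, 12.3, 15.5 and 13.4 CPM in the animals, Fos at 24.8 and 79.03, 101, 80.1 and 109 CPM. Both were above the pool in every animal, with adjusted p = 4.73e-05 and 0.00165. Klf2, which endothelial cells raise under flow, rose from 2.31 to 10.2–13.3 CPM and Klf4 from 3.41 to 8.23–20.6 CPM. Dusp1 fell from 29.7 to 11.3–17.6 CPM. The call of Klf4 was lost without animal 4 (adjusted p = 0.0624) and that of Dusp1 without animal 1, 2 or 3 (adjusted p = 0.0793 to 0.0863). The lung cells alone passed through enzymatic digestion, so that residence in the lung and dissociation cannot be told apart for any gene compared here. This includes these genes and the heat-shock genes. The calls of Klf2, Klf4 and Dusp1 ended without a filter on low values. Other losses were Klf4 under housekeeping scaling, Dusp1 with the deposited log10 values, Dusp1 in cells with up to 5% mitochondrial reads, Dusp1 in the culture and intravascular libraries alone, Klf4 and Dusp1 with mean CPM per cell, Dusp1 with length and GC correction, and Dusp1 with DESeq2 size factors.

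Of the 15 cyclins, kinases and inhibitors of G1, 2 rose (13.3%) and 4 fell (26.7%), beside 7.34% and 8.74% of all genes. The inhibitor p21, Cdkn1a, measured 24.9 CPM in the pool and 179.7, 92.1, 70.7 and 126 CPM in the animals, a 4.71-fold higher mean (log2 fold change 2.24 ± 0.54, adjusted p = 0.00845). Cdk6 rose from 87.8 to 160.1–183 CPM, whereas Cdk4 fell from 565 to 182, 284, 295 and 222 CPM (adjusted p = 0.00199) and cyclin D2, Ccnd2, from 288 to 102, 97.8, 118 and 108 CPM (adjusted p = 4.97e-05). Cdkn2c (68.3 against 22.1 to 37.3 CPM) and E2f4 (39.6 against 7.44 to 21.3 CPM) fell as well. In S phase, 3 of 43 genes rose (6.98%) and 1 fell (2.33%): Hells (55.9 against 151 to 161 CPM), E2f8 (9.20 against 20.6 to 34.3 CPM) and Nasp (128 against 216 to 254 CPM) were higher and Chaf1b (38.5 against 11.96 to 14.1 CPM) lower. In G2/M, 7 of 52 rose (13.5%) and 1 fell (1.92%). The hyaluronan-mediated motility receptor Hmmr, a spindle protein, went from 36.2 to 144, 104, 130.3 and 121 CPM (log2 fold change 1.78 ± 0.33, adjusted p = 0.0011). The kinetochore proteins Cenpf (89.1 against 199 to 249.9 CPM) and Cenpe (44.5 against 91.4 to 103 CPM) and the histone chaperone Hjurp (28.2 against 53.3 to 81.4 CPM) rose, and Aurkb fell from 31.5 to 4.77, 14.3, 14.2 and 12.8 CPM. Testing without a filter on low values left no call for Cdkn1a, Cdkn2c, E2f4, Cenpe and Aurkb. Other losses were Nasp under housekeeping scaling, E2f4 and Aurkb in the culture and intravascular libraries alone, Aurkb with mean CPM per cell, and Cdkn2c, E2f4 and Aurkb with length and GC correction.

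Of 7 tested Wnt targets and feedback genes, 2 rose (28.6%) and 1 fell (14.3%). Cd44 and Myc, the member that fell, were described above. The receptor-clearing ligase Znrf3 went from 20.6 to 59.4, 49.5, 48.3 and 45.1 CPM. In the study's Wnt pathway list 2 of 76 rose (2.63%) and 6 fell (7.89%), 1 of these being Ccnd2, and neither share exceeded that over all genes tested (7.34% and 8.74%). Rbx1 rose from 241 to 429–527 CPM and the corepressor Ctbp2 from 5.44 to 12.3–30.3 CPM. The ligand Wnt7a fell from 49.6 to 10.01, 7.08, 10.6 and 10.1 CPM (log2 fold change -2.39 ± 0.61, adjusted p = 0.0113) and the coreceptor Lrp5 from 44.1 to 15.4–23.1 CPM. The study used that list on these cells. Znrf3 and Wnt7a lost their calls without a filter on low values. Other losses were Znrf3 under housekeeping scaling, and Rbx1 with the deposited log10 values.

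Of 74 nuclear genes of oxidative phosphorylation, 17 rose (22.97%) and 7 fell (9.46%), and 5 of 13 mitochondrially encoded genes rose (38.5%) with none falling. Uqcrb (357 against 741 to 804 CPM), Ndufa5 (191 against 383 to 499 CPM), Ndufb10 (197 against 359.8 to 401 CPM) and Ndufb11 (296 against 582 to 639 CPM) were higher. Ndufv1 (208 against 58.3 to 84.8 CPM), Uqcrc2 (97.01 against 25.2 to 59.1 CPM) and the ATP synthase chains Atp5b (1724 against 559 to 936 CPM) and Atp5a1 (287 against 147 to 179 CPM) were lower. The call of Atp5a1 was lost without animal 1 or 4 (adjusted p = 0.0506 to 0.0631). Over the whole transcriptome, the median transcript length was 2526 bases among called higher genes, 2117 bases among called lower genes and 3161 bases among all tested, and the difference correlated weakly with length across genes (Spearman's rho 0.11, 8716 genes, which are not independent replicates). Of the mitochondrial transcripts, mt-Nd2 went from 310.5 to 573–788 CPM, mt-Nd4 from 629 to 1063–1324 CPM, mt-Nd4l from 864 to 1356–1536 CPM and mt-Nd6 from 55.8 to 100.2–124 CPM. The calls of Uqcrc2, Atp5a1 and mt-Nd6 ended without a filter on low values. Other losses were mt-Nd4l and mt-Nd6 under housekeeping scaling, mt-Nd4l and mt-Nd6 with the deposited log10 values, mt-Nd6 in cells with up to 5% mitochondrial reads, Uqcrc2 in the culture and intravascular libraries alone, Atp5a1 with mean CPM per cell, and Atp5a1, mt-Nd4l and mt-Nd6 with length and GC correction.

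Cholesterol synthesis (24 genes tested), fatty acid synthesis (13) and iron handling (8) gave no call in either direction by edgeR's quasi-likelihood test. At an unadjusted p under 0.05 they gave 3 higher and 2 lower, 0 and 2, and 1 and 1 genes, and DESeq2 called 3 higher and 1 lower in cholesterol synthesis and none in the others. Their most abundant members were farnesyl diphosphate synthase Fdps (307 against 212 to 333 CPM), Elovl1 (90.7 against 59.5 to 107 CPM) and ferritin light chain Ftl1 (12684 against 8556 to 10469 CPM). In the circadian clock list 1 of 6 fell (16.7%), the repressor Ciart, from 93.03 CPM to 12.2, 8.66, 6.47 and 35.9 CPM (log2 fold change -2.56 ± 0.64, adjusted p = 0.0102, and -3.36 without animal 4). From 6 tested stemness and dormancy genes, also chosen by the study, Itga6 and Klf4 rose and Myc fell (33.3% and 16.7%, beside 7.34% and 8.74% of all genes tested). Testing without a filter on low values left no call for Ciart. Another loss was Ciart in DESeq2.

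Among called genes with at least 50 CPM in the animals, those whose nearest animal stood furthest above the pool were led by the prolactin-family hormones Prl2c3 and Prl2c2, also called proliferins, whose sequences are near-identical. Prl2c3 had 6 reads in 2 cells of the pool and 388, 569, 483 and 229 CPM in the animals, and Prl2c2 had 11 reads in 2 cells of the pool and 217, 339, 333 and 142 CPM in the animals. The ratios were 5930 with a counting interval of 2724 to 16160 and 2000.02 with an interval of 1118 to 4007. Matrix Gla protein, Mgp, a calcification inhibitor, rose from 4.10 CPM to 64.3, 169, 452 and 66.5 CPM (log2 fold change 5.52 ± 1.02, adjusted p = 0.00109, and 4.604 without animal 3). The LIM-domain genes Crip1 and Crip2 rose from 379 to 8382, 7612, 8239 and 7777 CPM and from 10.3 to 62.7–77.98 CPM. Thymosin β4, Tmsb4x, which binds actin monomers, rose from 422 to 3132, 3723, 3492 and 3942 CPM (adjusted p = 1.42e-08), and the dynein light chain Dynll1 from 583 to 3373, 3533, 3213 and 3606 CPM (adjusted p = 5.76e-08). Ccl5, Mmp9 and Krt14, given above, complete the 10. Without the highest cell of each library, the mean difference on log2(CPM + 1) went from 4.73 to 3.31 for Mgp, from 4.96 to 4.16 for Ccl5, from 3.84 to 2.74 for Cxcl11, from 2.91 to 2.20 for Oas1g and from 3.46 to 1.93 for Scgb1a1.

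Among called genes with at least 50 CPM in the pool, those furthest below it were Chac1, Trib3, Asns, Ddit3, Thbs1 and Cebpb, given above, and 4 further genes. The secreted Angptl6 was 77.2 CPM in culture and 4.48, 1.28, 5.62 and 0.838 CPM in the animals, a 25.3-fold difference (log2 fold change -4.66 ± 0.60, adjusted p = 4.41e-05). Fez2 fell from 221 to 28.9, 38.2, 37.6 and 15.9 CPM. The mitochondrial thioredoxin reductase Txnrd2 fell from 126 to 18.5, 12.1, 21.5 and 16.8 CPM, and Flywch2 from 151 to 26.6, 28.98, 27.4 and 24.7 CPM. None of the 4 showed overlap between pool and animals, and adjusted p was 1.01e-05 for Fez2, 4.73e-05 for Txnrd2 and 0.00301 for Flywch2. Without the highest cell of each library, the mean difference on log2(CPM + 1) went from -4.48 to -5.46 for Angptl6, from -4.58 to -5.50 for Chac1, from -3.90 to -4.67 for Trib3, from -2.78 to -4.12 for Ciart and from -2.03 to -2.88 for Cldn4.

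The summed levels could come from many cells or from few, so cells with at least 1 read were counted after each cell was thinned to 50000 reads, which left out 4 cultured cells and 1 to 5 cells per animal. Chac1 was detected in 78.6% of cultured cells and in 6.49% to 8.43% of intravascular cells per animal, and Trib3 in 73.2% and 5.19% to 10.1%. Without thinning, Chac1 was found in 88.3% of cultured cells and 12.5% to 19.05% of intravascular cells, at their greater depth. Asns (84.7% against 20.5% to 34.2%) and Ddit3 (86.8% against 24.1% to 32.5%) were likewise detected in most cultured cells and in a minority of intravascular cells. Prl2c3 was found in none of 365 cultured cells, which at this depth allows a share of up to 0.822% with a read (3 counts of the total), and in 53.2% to 58.4% of intravascular cells. Krt14 (6.03% against 41.6% to 54.5%), Mmp9 (3.56% against 36.4% to 51.9%) and Col6a1 (0.548% against 14.3% to 30.1%) were present in a larger share of intravascular cells in every animal. Ccl5 was detected in 4.66% and 12.99% to 25.3%. Cxcl11 was seen in 7.59% to 10.8% of intravascular cells and in none of the thinned cultured cells, and Ccl20 in 24.7% of cultured and 0% to 1.30% of intravascular cells. The club cell gene Scgb1a1 was detected in 0.274% of cultured and 4.82% to 9.09% of intravascular cells, and the Cxcl11 shares were near the latter. Where the reads of Scgb1a1 and Cxcl11 came from was not tested.

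**Figure D5:**
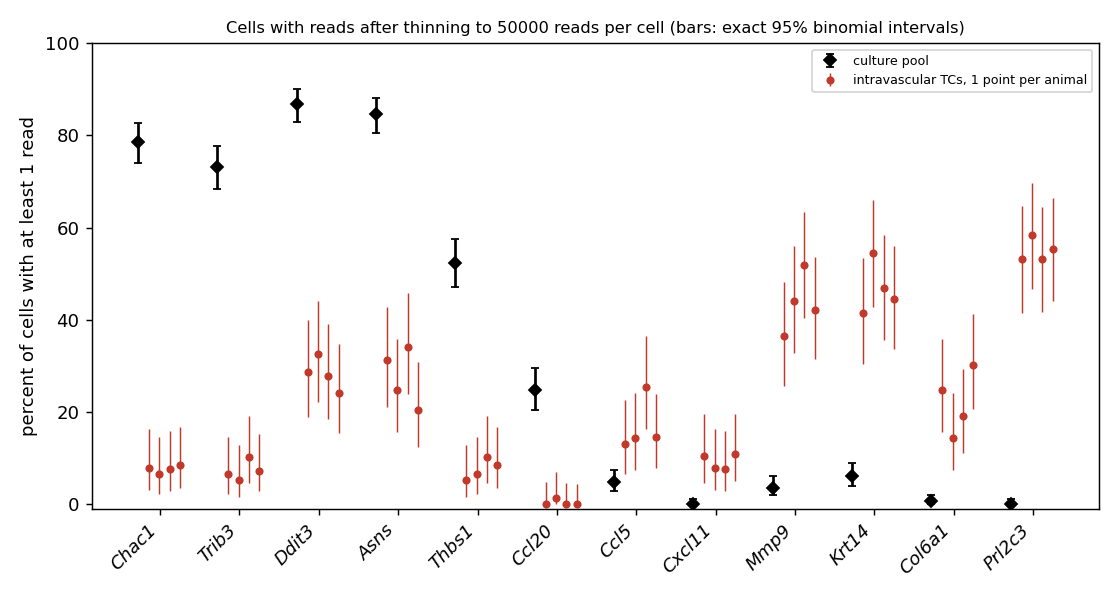
Percent of cells with at least 1 read of each gene after every cell was thinned to 50000 reads, in the culture pool (black diamond) and in intravascular TCs of each animal (red points), with exact 95% binomial intervals that cover counting error only. The 4 stress-response genes at the left are high in the pool and low in the animals, and Mmp9, Krt14, Col6a1 and Prl2c3 are the reverse.

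The reference genes of the study's panel were not level between the groups. Of 11, Ppia (5266 against 7727 to 8476 CPM) and B2m rose, Gapdh, Rplp0 and Pgk1 (276 against 134 to 153 CPM) fell and 6 did not pass. Actb stood at 6962 CPM in the pool and 6882, 8528, 8792 and 7149 CPM in the animals (adjusted p = 0.491). Hprt was at 68.1 CPM against 29.8 to 57.2 CPM, Tbp at 18.9 against 10.6 to 14.6 CPM, Ywhaz at 265 against 179 to 236 CPM, Tubb5 at 875 against 508 to 744 CPM and Gusb at 20.4 against 20.6 to 26.2 CPM. Summed over all 11, the panel was 25721 CPM in the pool and 22936, 25794, 27675 and 23236 CPM in the animals. The pool lay within their range. This sum includes Rplp0, Hprt and Tbp, which did not enter the housekeeping scaling. Of them, Rplp0 had 8899 CPM in the pool and 4253 to 5256 CPM in the animals. The sum over 11 therefore does not describe the level of the 8 genes used for scaling.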

How the data were processed

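Estimated counts of TCs per gene and cell were deposited separately for each gate. The authors obtained them by modified SMART-Seq2 without molecular identifiers, pseudo-alignment with Salmon 0.7.2 to GRCm38 and tximport. A further deposited table holds log10 values that the authors scaled by housekeeping genes. Whether counting used strand is not given in the sources used here. Gates were taken from identifiers and animals from the deposited annotation, since sample labels give no mouse number. Estimated counts of the authors' kept cells were summed per gate and animal and rounded. One sorted cell per well was sequenced, so no doublet caller was run. Animals are numbered by the annotation's mouse order.

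Genes needed a mean of 5 CPM balanced over groups and reads in at least 20 cells. The 14 TC libraries (1 culture, 4 intravascular, 4 extravascular and 4 latent libraries and 1 proliferative pool) entered edgeR 4.0.16 (R 4.3.3; TMM, glmQLFit, glmQLFTest, 9 residual degrees of freedom, Benjamini-Hochberg over all genes tested), and position was read on log2(CPM + 1). Gene lists were described by counts, without a list test. DESeq2 1.42.0 was an alternative, as were other scalings and filters, fewer libraries, the deposited log10 values, and a correction for length and GC content, the last chosen after seeing the data. The members, the 45 lists and the rules were chosen with earlier results of these data known. Named genes were the 10 of each direction whose nearest animal lay furthest from the pool (at least 50 CPM in the higher group, no predicted genes, pseudogenes or mitochondrial genes), up to 4 called members per list and direction or the most abundant member where none was called, and the study's housekeeping panel with H2-K1 and H2-D1. Gene positions come from the GENCODE vM21 annotation, which matched 34584 of 35299 symbols. Cells were thinned at random to 50000 reads for shares, with exact Clopper-Pearson 95% intervals. Some items are not reported here by name or drawn, though list counts and sums include them.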

Additional observations from a re-analysis of the deposited data

Results flagged for a closer look

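Among the 176 genes named and 45 summed lists, 17 had an animal that lay far from the other 3 intravascular animals, with a gap to the next animal above Dixon's 95% critical value for 4 samples; chance gives this in about 1 in 20 groups. Animal 3 accounted for most of them. In it Ccl5 stood at 611 CPM (next animal 208 CPM), Cxcl11 at 41.9 (11.4), Oas1g at 35.9 (8.49), Mmp9 at 91.1 (65.2), Ccn1 at 124 (59.4), Emp3 at 740 CPM (597) and mt-Nd4 at 1324 (1105). The summed class II genes reached 56.2 CPM there (13.9 in the next animal) and the summed lymphocyte markers 8.43 CPM (2.26), of which 84.2% came from 1 cell. In animal 1, Aurkb was low at 4.77 CPM (12.8) and Slc2a1 high at 18.9 CPM (11.5). Animal 2 had the lowest Wnt7a, 7.08 CPM (10.01). In animal 4, Thbs1 was high at 9.91 CPM (2.58), as were Cenpe at 103 CPM (92.7), Dusp1 at 17.6 CPM (12.3) and the summed endothelial markers at 41.2 CPM (29.6), and Gusb was low at 20.65 CPM (26.0). Leaving out the outlying animal ended the call of none of the called genes among these.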

How the results depend on the processing

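Counts of genes higher and lower in intravascular TCs (644 and 767) moved over 1.5 times under housekeeping scaling (333 and 1503), without a filter on low values (405 and 415, from 24826 genes tested) and, for lower genes, with the deposited log10 values (1535). Fallen ribosomal protein genes numbered 45 under housekeeping scaling, 38 with mean CPM per cell and 49 with log10 values in place of 25, and fallen stress response genes 22 with log10 values in place of 14. Interferon genes called higher became 5 under housekeeping scaling and 3 without a filter, and class I, matrix and glycolysis counts without a filter 5 each, in place of 8, 9 and 9. Leaving out an animal gave 560 to 634 higher and 629 to 791 lower genes. The cause of these shifts was not tested, beyond the larger number of genes tested without a filter. DESeq2 gave 874 and 829, the 5 libraries alone 585 and 544, and length and GC correction, chosen after seeing the data, 653 and 722, of which 550 and 605 had been called. Of the genes named, 21 lost their call under housekeeping scaling and 48 without a filter. Sign changed for no called gene named, and for these other values: Actb (log2 difference -0.10 under housekeeping scaling, -0.12 with log10 values), Atf3 (0.037 with length and GC correction), Elovl1 (-0.25 to 0.0071 when an animal was left out, 0.27 with log10 values, 0.12 with length and GC correction), Fdps (0.028 with that correction), H2-D1 (-0.28 to 0.12 when an animal was left out, 0.25 with that correction) and, under housekeeping scaling, the summed adhesion and oxidative phosphorylation genes (-0.024 each). No paired analysis was possible because the culture pool carries no replicate number that pairs it with an animal.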
